A study of Mus musculus with 6 samples.

Results

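The genes described here encode calcium, sodium and potassium channels and their accessory subunits in mouse pancreatic islets. They were chosen by gene name (Cacna, Cacnb and Cacng, Scn and Kcn genes) and by a mean of at least 0.5 CPM (counts of a gene scaled by the size of its library) over the 6 libraries. Of 48397 genes in the count tables, 131 had a matching name and 89 of those reached that level. The other 42 had lower counts. The label of the set, voltage-gated channels, holds for only some of it. The name pattern also takes inward rectifiers, two-pore-domain and calcium-activated potassium channels, the calcium channel gamma genes, several of which serve glutamate receptors, and subunits with no pore of their own. It misses the sodium channel gene that the tables call Scn2a1, because of its last digit.

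The islets came from wild-type C57B6 mice and hold a mixture of endocrine and other cells. After a recovery culture overnight they were kept for 24 h with 500 ng/mL of recombinant mouse prolactin in DMSO, or with DMSO alone as the control. Polyadenylated RNA of 3 libraries per condition was sequenced. Whether the replicates are separate mice, separate cultures or neither is not stated in the labels. The p-values therefore rest on the spread among these 6 samples, some or all of which could be technical.

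Beta cells are electrically excitable. When glucose metabolism closes the KATP channel, whose pore is the product of Kcnj11, the membrane depolarises, voltage-gated calcium and sodium channels open, and the calcium that enters triggers insulin release. Voltage-gated and calcium-activated potassium channels then repolarise the cell, and two-pore-domain channels carry a background potassium current. Alpha and delta cells use many of the same channels, and nerve, muscle and immune cells use others of these families. In bulk RNA from islets, more cells of a type and more RNA per cell cannot be told apart, for any of the changes below.

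The prolactin libraries held 231247908, 230833584 and 264885071 counts in genes, and the control libraries 530296257, 281202173 and 264466143. Channel genes took 0.227% to 0.242% of the counts in prolactin libraries and 0.217% to 0.238% in control libraries. Prolactin replicates 2 and 3 were closer to each other than the other same-condition pairs were. Their mean chi-square per gene was 2.63, against 5.61 to 11.9 in those pairs. They were kept as separate samples, and the edgeR test was also run with the pair summed into 1 library. Levels, SDs, marker sums and counts of separate groups use the 6 libraries only.

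Per kb of merged exons, channel mRNA in these islets was led by potassium channels of the resting membrane. The level of Kcnk16, the two-pore-domain channel TALK-1 of beta cells, was 158.9 ± 8.3 CPM per kb (SD, n = 6), 30.1% of the sum of 528.5 over all 89 genes. Kcnj11 came next at 40.2 ± 2.7 CPM per kb. Cacnb3, a cytoplasmic beta subunit of calcium channels, had 29.6 ± 3.1 and Kcnh6, an ERG-type potassium pore, 28.7 ± 2.4 CPM per kb, levels closer to each other than their SDs. Kcnmb2, a beta subunit of the large-conductance calcium-activated channel, had 24.8 ± 2.1. At the other end, the potassium pore Kcnd3 had 0.0642 CPM per kb, and the median over the 89 genes was 1.08. This order depends on the division by length, and the Kcnk16 model has only 879 bases of exons. In CPM from unscaled library totals, 2 calcium channel genes led, Cacna2d1 with 192.7 and Cacna1d with 166.1. Kcnj11 followed with 148.0 and Kcnk16 with 139.6.

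The order within classes is given with the spread between libraries. Among calcium channel pores, the L-type gene Cacna1d led with 18.0 ± 1.7 CPM per kb (SD, n = 6), above Cacna1a of the P/Q type with 8.74 ± 1.01 and the second L-type gene Cacna1c with 5.87 ± 0.41. Cacna2d1 at 15.5 CPM per kb led the alpha2delta subunits. Sodium channel pores were led by Scn9a with 6.27 ± 0.26 and Scn3a with 4.94 ± 1.07 CPM per kb, both below Cacna1d and Cacna1a. The SD over all 6 libraries also holds the difference between conditions. Scn9a was above Scn3a in each condition, with 6.47 against 5.88 CPM per kb with prolactin and 6.06 against 4.01 in control. Kcnip1, a cytoplasmic partner of Kcnd pores, led the potassium channel accessory subunits at 14.4 CPM per kb. The two-pore-domain class as a whole held 39.1% of the summed level, the KCNQ and KCNH pores 11.4% and the inward rectifiers 9.50%. Ranked by CPM without length, 12 of 13 classes kept the same leading gene.

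**Figure D1:**
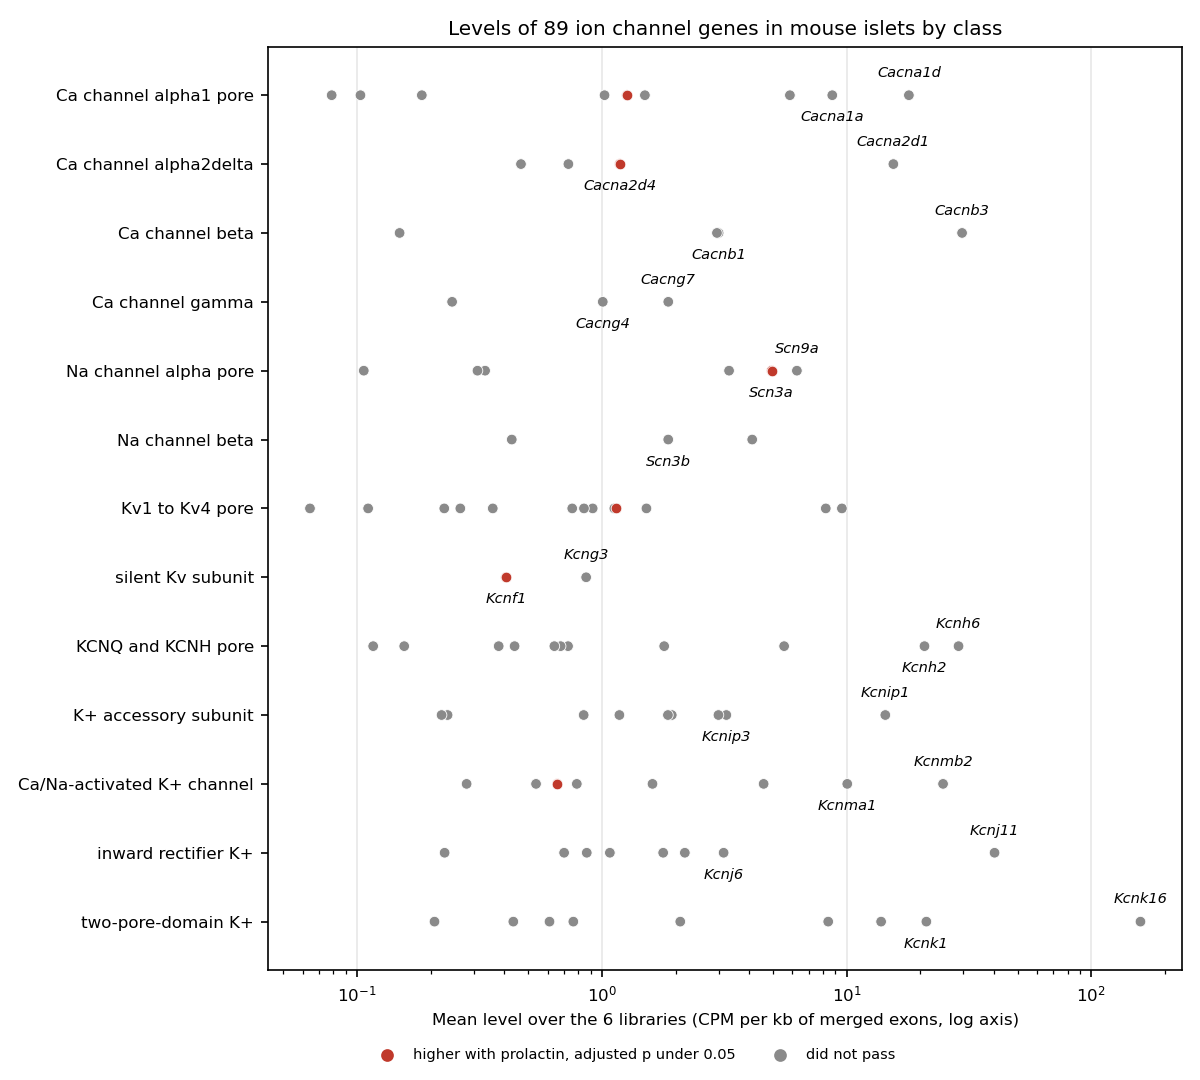
Mean level of each of the 89 channel genes over the 6 libraries in CPM per kb of merged exons (log axis), 1 row per class and 1 point per gene, with several of the leading genes named. Kcnk16 stands furthest right at 158.9, and the 6 red points, the genes that were higher with prolactin, lie at 4.94 or below.

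The prolactin and control libraries were then compared to ask which channel transcripts differ after a day of the hormone. The level threshold used the mean over both conditions, not the contrast, and all 89 genes passed the expression filter. Transcripts of 6 channel genes rose with prolactin: the T-type calcium pore Cacna1g, the calcium channel subunit Cacna2d4, the sodium pore Scn3a, the potassium pore Kcna2, the silent potassium subunit Kcnf1 and the calcium-activated potassium channel Kcnn4. None fell. The test was edgeR's quasi-likelihood test, adjusted over all 23924 genes tested, with a threshold of 0.05.

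These 6 make up 6.74% of the 89 genes, beside 0.652% of all genes tested that were higher and 0.104% that were lower. Of the genes tested that also met the 0.5 CPM level, 0.899% were higher and 0.153% lower. The count of 0 lower channel genes was also 0 in DESeq2 and in limma-voom, and by unadjusted p under 0.05 in edgeR 3 channel genes were lower, beside 6.68% of all genes tested and 8.65% of those at 0.5 CPM or more. At that unadjusted limit 18 channel genes (20.2%) were higher, beside 7.78% of all genes tested and 9.46% of those at 0.5 CPM or more. The 3 prolactin libraries all lay above the 3 control libraries for 26 channel genes (29.2%, against 11.3% of all genes tested and 12.7% of those at 0.5 CPM or more). All 3 lay below for 2, Kcnn3 and Kcnip2 (2.25%, against 10.4% and 13%). The log2 change was positive for 65 of the 89 genes (73.0%), against 50.1% of all genes tested, and its median was 0.13, against 0.00 for all genes tested. These shares describe the set, whose members were chosen with results of these data known, and carry no test of their own.

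Cacna1g encodes the pore of a low-voltage-activated, T-type calcium channel, which opens at membrane potentials near rest (mm10 chr11:94408391-94474198, minus strand). Its level was 15.1, 14.2 and 15.0 CPM in the prolactin libraries, against 10.6, 10.9 and 11.2 CPM in the control libraries. The groups did not overlap, and each was tight. The log2 change was 0.43 (SE 0.0609, adjusted p = 0.0185 by edgeR's quasi-likelihood test). Cacna2d4 (chr6:119236526-119352407, plus strand) encodes an alpha2delta subunit, a membrane-anchored partner of high-voltage-activated calcium pores that is best known from photoreceptors. Its level was 12.4, 13.2 and 12.8 CPM with prolactin and 10.1, 9.59 and 9.24 CPM in control. Again no control library reached the prolactin range, and the log2 change was 0.41 (SE 0.0648, edgeR adjusted p = 0.0307).

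Scn3a (chr2:65457118-65567627, minus strand) encodes a sodium channel pore found in neurons before birth and in islet cells. It was the most abundant of the 6 genes, with 75.3, 72.8 and 71.5 CPM in the prolactin libraries and 51.5, 43.4 and 54.9 CPM in the control libraries. The control libraries spread more widely than the prolactin libraries, but the lowest prolactin library lay above the highest control library. Scn3a averaged 73.2 ± 2.0 CPM with prolactin and 49.9 ± 5.9 CPM in control (SD, n = 3 each). The log2 change was 0.55 (SE 0.0818, edgeR adjusted p = 0.0242). Scn9a, the other leading sodium pore of islets and a neighbour in level, had 82.7 ± 2.3 CPM with prolactin and 77.4 ± 1.6 CPM in control, a log2 change of 0.09 that did not pass (edgeR adjusted p = 0.420).

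Among potassium channels, Kcnn4 had the largest change of any of the 89 genes. It encodes the intermediate-conductance calcium-activated channel, known from red blood cells and lymphocytes and described in islets (chr7:24370263-24386690, plus strand). Its level was low: 4.90, 4.22 and 3.94 CPM with prolactin, against 2.65, 2.47 and 2.01 CPM in control. That is 1.83-fold, with no overlap of the groups (log2 0.87, SE 0.134, edgeR adjusted p = 0.0285). Kcnf1 (chr12:17172100-17176888, minus strand) encodes an electrically silent subunit, which makes no channel alone and modifies the currents of other voltage-gated pores. It had 2.37, 2.39 and 2.38 CPM with prolactin, against 1.43, 1.56 and 1.54 CPM in control. The prolactin libraries were nearly identical and all above control (log2 0.66, SE 0.106, edgeR adjusted p = 0.0323). Kcna2 (chr3:107101146-107115005, plus strand) encodes a Shaker-type voltage-gated pore that carries a delayed rectifier current in axons. It had 14.7, 15.8 and 15.8 CPM with prolactin and 11.5, 12.2 and 12.1 CPM in control, again without overlap (log2 0.37, SE 0.0618, edgeR adjusted p = 0.0346).

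**Figure D2:**
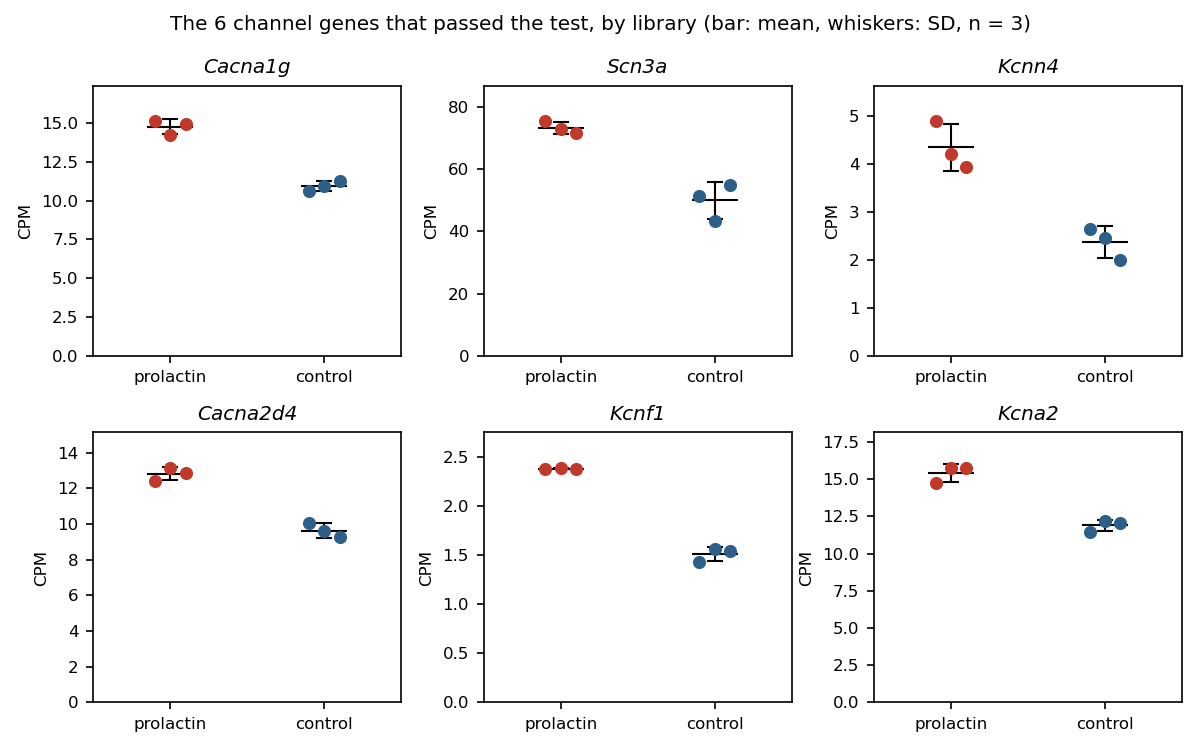
Level in CPM of the 6 channel genes that were higher with prolactin, 1 panel per gene, with 1 point per library and the mean ± SD of 3 libraries, prolactin left of control. In each panel the 3 prolactin points lie above the 3 control points, by the widest ratio for Kcnn4 (4.35 ± 0.50 CPM with prolactin, 2.38 ± 0.33 CPM in control).

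Gene models of 25 of the 89 genes share exon bases with another gene name, which counting without strand cannot separate. None of the 6 did. All 6 passed with other scalings, other filters, halved counts, DESeq2 and limma-voom, and with a block for the replicate number. With prolactin replicates 2 and 3 summed into 1 library, 0 of 6 passed (edgeR adjusted p from 0.119 to 0.232), and likewise 0 of 6 with any 1 prolactin library left out. Without control replicate 1 Cacna2d4 and Kcnn4 passed, without control replicate 2 Scn3a alone, and without control replicate 3 all 6. All 6 changes stayed positive over the 6 fits that leave out 1 library. The log2 change ran from 0.76 to 0.96 for Kcnn4, 0.46 to 0.63 for Scn3a and 0.62 to 0.68 for Kcnf1. It ran from 0.41 to 0.46 for Cacna1g, 0.38 to 0.44 for Cacna2d4 and 0.35 to 0.40 for Kcna2.

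**Figure D3:**
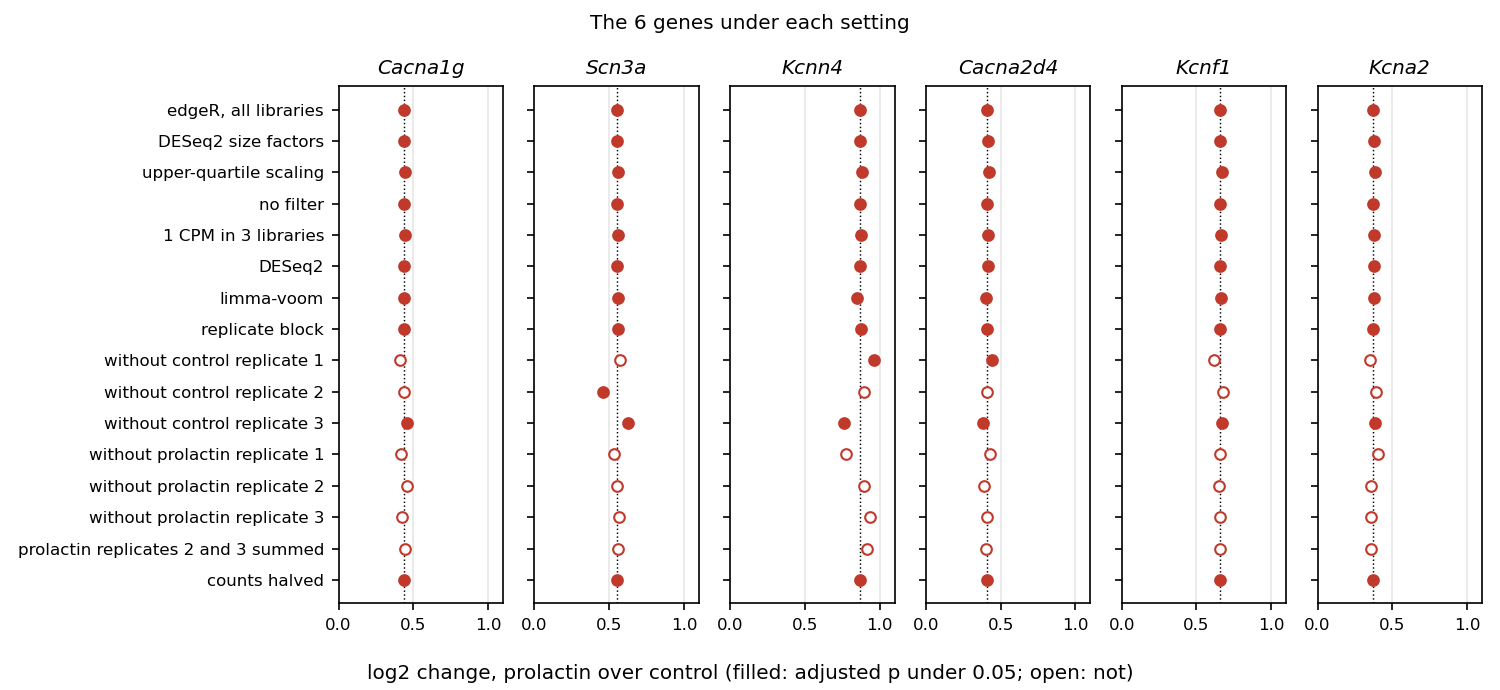
The log2 change of the 6 genes, prolactin over control, under the fit with all libraries and 15 other settings, filled where the adjusted p was under 0.05 and open where it was not. The points of a gene stay close to the dotted line of its reported change, while the open points gather where a library was left out or prolactin replicates 2 and 3 were summed.

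Prolactin signals through its receptor to STAT5, a transcription factor whose core motif is TTCNNNGAA (the same letters on both strands). The 250 bases before each start site in RefSeq (GRCm38.p6) were searched for it. Of 32851 windows of all genes, 7.02% held a match. Of the 89 channel genes, 64 were in the table with 93 windows, of which 8 (8.6%) held a match: 1 window each of Scn9a, Kcnip3, Kcnmb2, Kcnab1, Cacna1c, Scn2b, Kcnip1 and Cacna1i. The share of channel windows is close to that of all windows. The windows of 3 of the 6 higher genes, Kcna2, Kcnf1 and Kcnn4, are shown because their transcripts rose. None holds the motif, which says only that these letters are not in these windows. The Kcna2 window lies inside the counted gene model, which begins at chr3:107101146. Windows of Cacna1i and Kcnab1, which are among the 12 genes with the smallest p but did not pass, are shown for the match. A match in a window is a description, not a site. Each reads 5′ to 3′ on the gene's strand, with the match in capitals: Kcna2 chr3:107101317-107101566, plus strand; Kcnf1 chr12:17176889-17177138, minus strand; Kcnn4 chr7:24370013-24370262, plus strand; Cacna1i chr15:80286988-80287237, plus strand; Kcnab1 chr3:64948962-64949211, plus strand.
Kcna2: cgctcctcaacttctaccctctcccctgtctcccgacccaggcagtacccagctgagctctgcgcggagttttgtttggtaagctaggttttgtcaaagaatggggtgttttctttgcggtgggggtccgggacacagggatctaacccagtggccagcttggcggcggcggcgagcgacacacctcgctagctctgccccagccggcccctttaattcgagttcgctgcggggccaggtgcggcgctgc
Kcnf1: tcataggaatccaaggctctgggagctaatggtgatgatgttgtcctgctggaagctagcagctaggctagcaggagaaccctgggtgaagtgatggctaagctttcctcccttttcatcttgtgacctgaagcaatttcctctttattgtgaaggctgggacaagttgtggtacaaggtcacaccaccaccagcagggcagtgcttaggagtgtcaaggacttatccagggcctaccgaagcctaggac
Kcnn4: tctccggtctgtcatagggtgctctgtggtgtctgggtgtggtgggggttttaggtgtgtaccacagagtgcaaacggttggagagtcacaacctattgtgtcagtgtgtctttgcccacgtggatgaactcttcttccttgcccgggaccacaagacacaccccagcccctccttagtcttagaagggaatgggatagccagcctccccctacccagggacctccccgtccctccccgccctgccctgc
Cacna1i: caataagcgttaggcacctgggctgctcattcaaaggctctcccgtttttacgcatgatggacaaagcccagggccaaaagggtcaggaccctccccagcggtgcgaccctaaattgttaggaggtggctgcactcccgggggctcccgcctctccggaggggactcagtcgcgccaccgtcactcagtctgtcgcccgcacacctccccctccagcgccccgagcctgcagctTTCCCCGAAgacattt
Kcnab1: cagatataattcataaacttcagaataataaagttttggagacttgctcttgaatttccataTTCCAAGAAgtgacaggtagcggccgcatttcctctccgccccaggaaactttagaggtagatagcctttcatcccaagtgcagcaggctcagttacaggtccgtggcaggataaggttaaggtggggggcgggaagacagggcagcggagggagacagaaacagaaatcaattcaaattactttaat
The match TTCCCCGAA of Cacna1i begins 16 bases before the start site of its window, and TTCCAAGAA of Kcnab1 begins 188 bases before that of its own. Other windows of Kcnab1, at chr3:65108764-65109013 and chr3:65187853-65188102, held no match. The Kcnab1 gene model that was counted begins at chr3:65109384, downstream of the window with the match. Cacna1i had 2.57, 1.98 and 2.07 CPM with prolactin and 1.67, 1.17 and 1.41 CPM in control. Kcnab1 had 2.43, 2.29 and 2.32 CPM with prolactin and 1.89, 1.64 and 1.51 CPM in control. In both genes the groups did not overlap and the adjusted p missed the threshold (edgeR 0.135 and 0.125). By base composition the windows differed: 62.4% G and C with 18 CpG in Kcna2, 58.8% with 6 in Kcnn4, and 51.2% with 1 in Kcnf1.

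Of 9 calcium channel pores, 1 passed and 4 had separate groups with prolactin higher. Among all genes tested, 0.652% passed with prolactin higher and 11.3% had separate groups in that direction (12.7% of those at 0.5 CPM or more). All 3 T-type genes had prolactin libraries above control libraries without overlap. Beside Cacna1g these were Cacna1h, with 10.9 ± 0.4 CPM with prolactin and 9.11 ± 0.79 CPM in control (SD, n = 3 each; log2 0.26, edgeR adjusted p = 0.189), and Cacna1i (log2 0.63). Cacna1e, the R-type pore, had 2.90, 3.41 and 3.46 CPM with prolactin and 2.41, 1.86 and 1.31 CPM in control. Its groups were also apart, with a log2 change of 0.80 (SE 0.20) that did not pass (edgeR adjusted p = 0.122), and control replicate 3 was the lowest library. The abundant high-voltage-activated pores lay near 0. Cacna1d, the main L-type pore, had 149.8, 172.0 and 171.6 CPM with prolactin and 146.5, 169.3 and 187.6 CPM in control, groups that overlap fully (log2 -0.03, SE 0.0946, edgeR adjusted p = 0.920). Cacna1c was at -0.01, Cacna1a at 0.10 and the N-type Cacna1b at 0.03. Cacna1f, the L-type pore of the retina and the only other negative one, was at -0.20 with 0.665 ± 0.113 CPM with prolactin and 0.765 ± 0.247 CPM in control (SD, n = 3 each).

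Of the other calcium channel subunits, Cacna2d1, the abundant alpha2delta, had 190.1 ± 7.1 CPM with prolactin and 195.6 ± 13.0 CPM in control (log2 -0.04, edgeR adjusted p = 0.819). All 4 cytoplasmic beta subunits, which bring the pore to the membrane, had positive changes, from 0.08 for Cacnb2 to 0.25 for Cacnb4, and 0 of 4 passed. Cacnb3, the most abundant, had 86.0, 101.3 and 102.2 CPM with prolactin and 77.3, 96.8 and 91.4 CPM in control, with overlap (log2 0.12). Cacnb1 had 14.6 ± 0.9 CPM with prolactin and 12.6 ± 0.9 CPM in control (log2 0.21, edgeR adjusted p = 0.256). The gamma genes Cacng7, Cacng4 and Cacng2, auxiliary subunits of AMPA-type glutamate receptors, ranged from -0.06 to 0.21 with 0 of 3 passed. Among Cacng4 libraries the groups did not overlap, with 3.87 ± 0.23 CPM with prolactin and 3.34 ± 0.25 CPM in control.

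In the sodium channel class, Scn7a, a pore gene whose product senses extracellular sodium and is not opened by voltage, had the largest change of all sodium channel genes. It had 3.16, 2.75 and 2.59 CPM with prolactin and 2.07, 1.83 and 1.26 CPM in control, groups apart but with a change that did not pass (log2 0.72, SE 0.181, edgeR adjusted p = 0.126). Scn8a, a pore of mature neurons, had 49.4 ± 2.2 CPM with prolactin and 55.0 ± 7.1 CPM in control (log2 -0.16, edgeR adjusted p = 0.458). The muscle pore Scn4a was at 0.59 with a wide SE of 0.348. For the beta subunits Scn3b (-0.07) and Scn2b (0.29), cell-adhesion proteins that adjust gating, the groups overlapped.

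Of the 13 voltage-gated pores of the Kcna to Kcnd families, 1 passed (Kcna2), 10 had a positive change and 6 had separate groups with prolactin higher. The shares of all genes tested were 0.652% passing as higher, 50.1% positive and 11.3% separate with prolactin higher. Kcnc2, a fast delayed rectifier pore, had 4.93, 5.61 and 5.24 CPM with prolactin and 4.13, 4.0 and 4.21 CPM in control. These groups did not overlap, and the log2 change of 0.35 (SE 0.0869) missed the threshold (edgeR adjusted p = 0.114). Kcna1, which forms mixed channels with Kcna2 in axons, had 1.54 ± 0.24 CPM with prolactin and 0.985 ± 0.243 CPM in control (log2 0.64, edgeR adjusted p = 0.189). A-type pores Kcnd1, Kcnd2 and Kcnd3 were at -0.10, 0.31 and -0.08, and Kcnc1 at 0.02. The second silent subunit, Kcng3, had 3.19 ± 0.29 CPM with prolactin and 2.60 ± 0.54 CPM in control (log2 0.30, edgeR adjusted p = 0.425).

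None of the 11 KCNQ and KCNH pores passed, at adjusted or unadjusted p under 0.05 in edgeR, and none had separate groups, although 9 changes were positive. Of all genes tested, 11.3% had separate groups with prolactin higher and 10.4% with prolactin lower. DESeq2 and limma-voom called 0 of the 11 as well. The ERG-type pores Kcnh6 and Kcnh2 had changes of 0.13 and 0.20. Kcnh2 libraries read 96.6, 114.5 and 112.6 CPM with prolactin and 80.5, 100.4 and 100.6 CPM in control, and the groups overlapped. Kcnq1, a slow delayed rectifier pore whose gene shares 2.96% of its exon length with its antisense transcript Kcnq1ot1 (mean 53.4 CPM, against 1.80 CPM for Kcnq1), was at 0.26 (edgeR adjusted p = 0.488). The M-current gene Kcnq3 was at 0.36, with an SE of 0.249.

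Accessory subunits of voltage-gated potassium channels held the 2 ends of their own range: Kcnab1, a cytoplasmic beta subunit of Kcna channels, at 0.48 and Kcnip2 at -0.47. Kcnip2 had 0.540, 0.619 and 0.770 CPM with prolactin and 0.842, 0.806 and 1.04 CPM in control. The groups were apart with prolactin lower, the most negative change among the 89 genes, and it did not pass (SE 0.181, edgeR adjusted p = 0.284). Kcnip1, from the same family of calcium-binding partners and far more abundant, had 84.4 ± 2.5 CPM with prolactin and 94.2 ± 6.9 CPM in control (log2 -0.16, edgeR adjusted p = 0.299). The family member Kcnip3, which also binds DNA as a repressor, went the other way, with 13.1 ± 0.4 CPM with prolactin and 9.83 ± 2.29 CPM in control (log2 0.41, edgeR adjusted p = 0.245). Here control replicate 3 was lowest at 7.69 CPM.

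Among the calcium- and sodium-activated channels and their relatives, Kcnn4 rose, and none of its small-conductance relatives passed. The difference between them was not tested. Kcnn3 had 43.6, 44.1 and 46.2 CPM with prolactin and 46.7, 52.8 and 54.0 CPM in control. All prolactin libraries lay below all control libraries, by a log2 change of -0.20 (SE 0.0647) that did not pass (edgeR adjusted p = 0.215). Kcnn1 was at -0.05 and Kcnn2 at 0.20. Kcnma1, the pore of the large-conductance channel, had 68.4 ± 1.8 CPM with prolactin and 62.7 ± 3.6 CPM in control without overlap (log2 0.12, edgeR adjusted p = 0.368). Its beta subunit Kcnmb2 was at 0.09, and Kcnmb1, the smooth-muscle beta subunit, at 0.37 with prolactin replicate 1 alone high at 5.10 CPM.

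None of the abundant channels of the resting membrane passed the test. Kcnj11 had 140.4, 152.2 and 154.6 CPM with prolactin and 131.9, 151.3 and 157.6 CPM in control (log2 0.02, SE 0.0756, edgeR adjusted p = 0.926). Kcnk16 had 132.3, 141.2 and 143.1 CPM with prolactin and 134.3, 151.8 and 135.2 CPM in control (log2 -0.02, SE 0.0651, edgeR adjusted p = 0.936). In both genes the groups overlapped. Kcnj6, a G-protein-gated rectifier, was at 0.02. Of the other inward rectifiers, the spread of changes ran from -0.08 for Kcnj2 to 0.36 for Kcnj3, and 0 of 8 passed. Kcnk3, the acid-sensitive TASK-1 channel, had 65.0, 58.5 and 58.7 CPM with prolactin and 60.4, 47.0 and 40.7 CPM in control (log2 0.30, edgeR adjusted p = 0.320), with overlap. Kcnk1 was at -0.12, and 0 of 9 two-pore-domain genes passed. For Kcnj11 and Kcnk16 together the edgeR quasi-likelihood test gave 0 calls at an unadjusted p under 0.05.

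**Figure D4:**
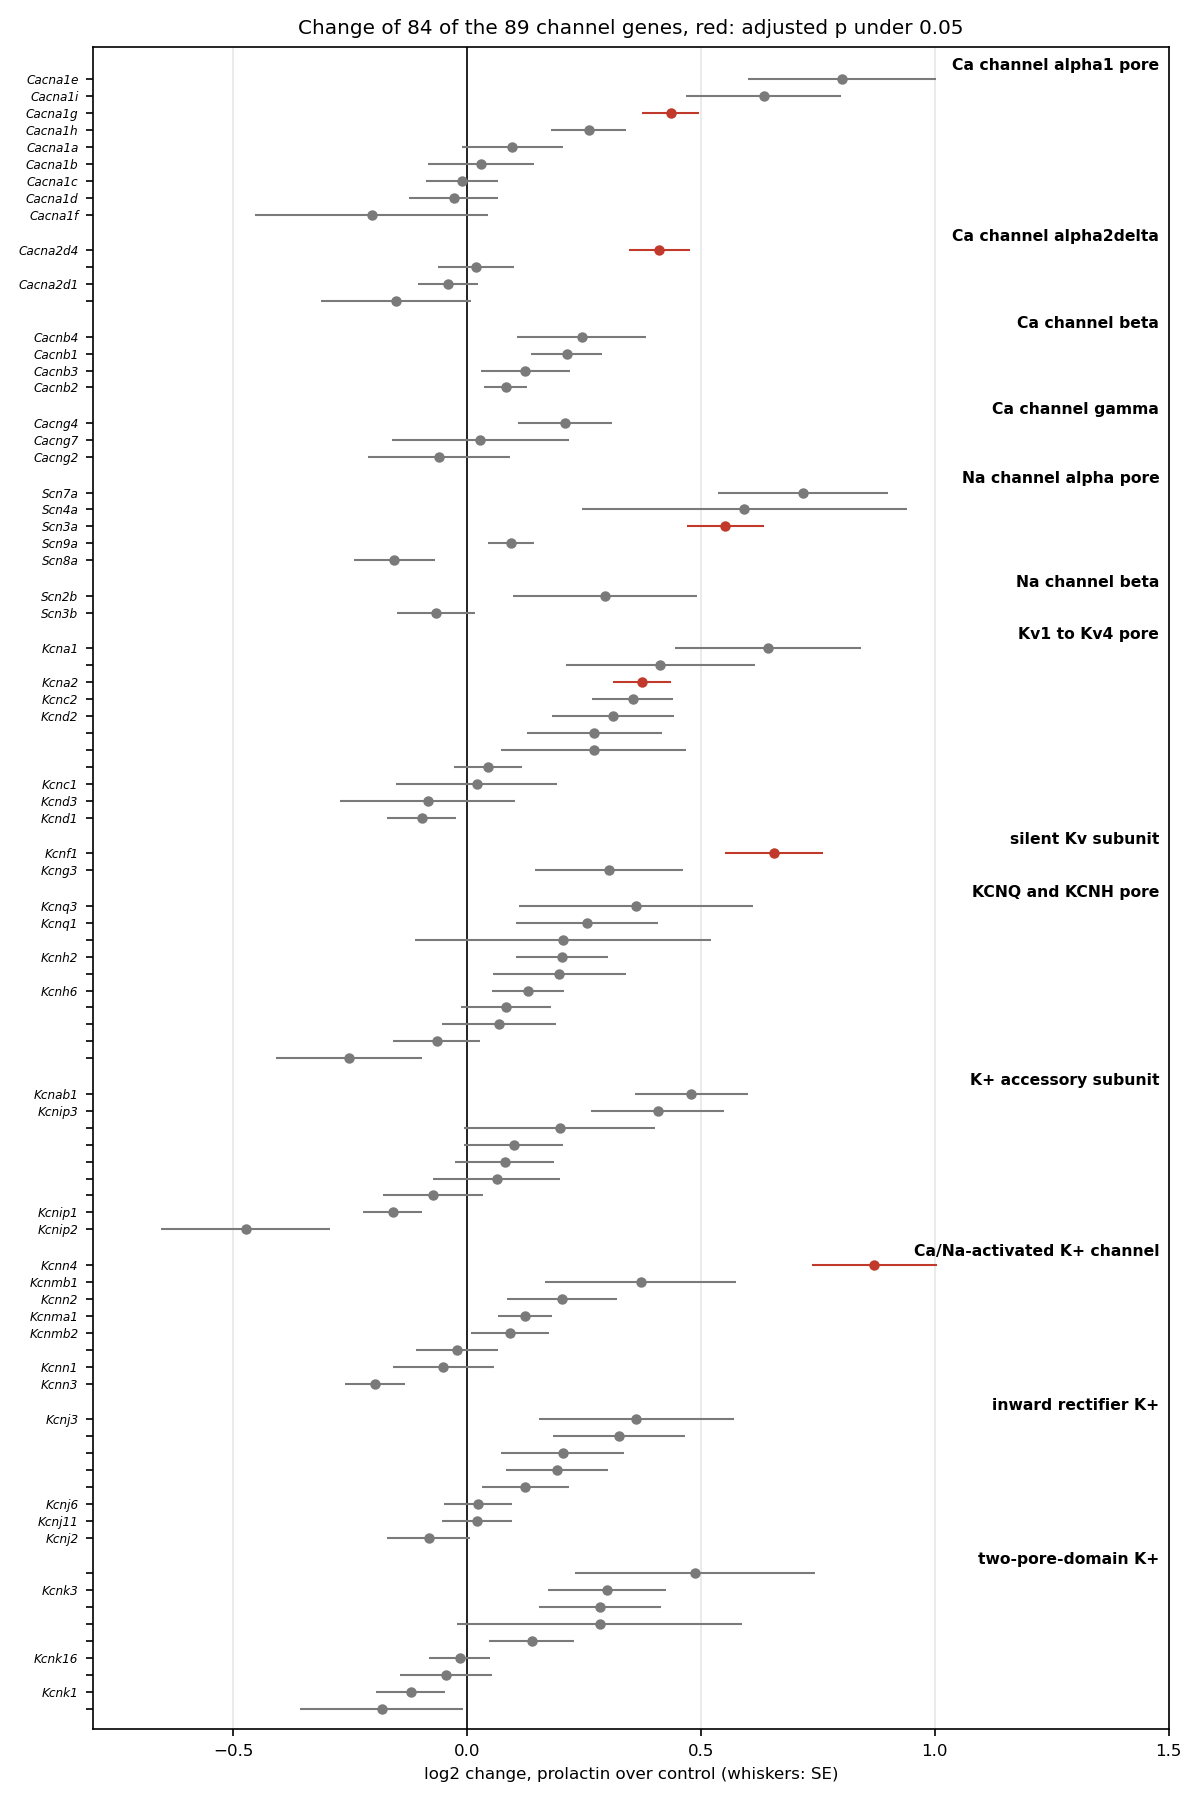
The log2 change of 84 of the 89 channel genes, prolactin over control, with whiskers of 1 SE, grouped by class and ordered by size within it, with the genes of the text named; red marks an adjusted p under 0.05. Most points lie to the right of 0, and the 6 red ones come from 6 classes, from 0.37 for Kcna2 to 0.87 for Kcnn4.

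Set against level, the largest changes belonged to the less abundant genes. Of 19 genes at 5 CPM per kb or more, 0 passed in edgeR or in the authors' deposited table. Unadjusted p-values under 0.05 stood at 1 in each direction. On the log2 scale 17 of the 19 lay within 0.2 of 0. So did 15915 of all 23924 genes tested and 12899 of the 16356 at 0.5 CPM or more. The median log2 change of the 19 was 0.04, with 11 positive. Of 70 genes under 5 CPM per kb, 6 passed, 54 were positive and the median log2 change was 0.20. The line at 5 CPM per kb was drawn with the results known, and Scn3a at 4.94 stands just under it. The median SE was 0.0832 above the line and 0.133 below it, so changes of the rarer genes are also less precise.

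**Figure D5:**
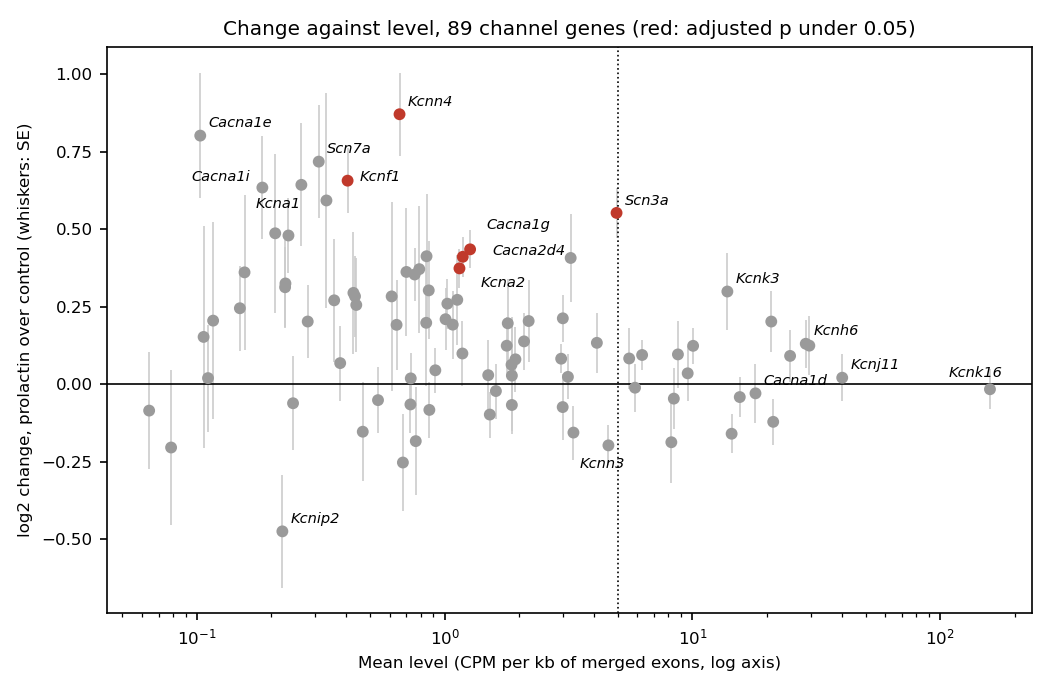
The log2 change of the 89 channel genes, prolactin over control (whiskers, SE), against the mean level in CPM per kb of merged exons (log axis), with a dotted line at 5. To the right of the line 17 of 19 genes lie within 0.2 of 0, and the 6 red genes (adjusted p under 0.05) lie to its left. Of all genes tested at 0.5 CPM or more, 12899 of 16356 lay within 0.2 of 0.

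Other genes of excitability and calcium handling gave 1 rise among 46 tested: Ano1, a calcium-activated chloride channel, had 14.6 ± 1.7 CPM with prolactin and 10.0 ± 0.6 CPM in control (SD, n = 3 each; log2 0.54, edgeR adjusted p = 0.0377). That call held in 1 of the 6 fits that leave out a library. The 1 gene is 2.17% of the list, beside 0.652% of all genes tested that were higher. The list had 30 positive changes (65.2%, against 50.1% of all genes tested) and a median of 0.04. In edgeR 0 genes were lower (1 at an unadjusted p under 0.05, beside 6.68% of all genes tested). In the authors' deposited table, higher genes of the list at an adjusted p under 0.05 numbered 4, namely Ano1, Itpr1 (0.0142), Abcc9 (0.0344) and Trpm5, and 0 were lower. Of all genes with an adjusted p in that table, 4.1% were higher and 1.6% lower. Abcc9 is also in the list of stromal markers below. Trpm5, a calcium-activated cation channel, was at 0.70 in edgeR (adjusted p = 0.0826). Abcc8, the regulatory subunit that pairs with Kcnj11 in the KATP channel, had 898.3 ± 32.5 CPM with prolactin and 991.5 ± 131.8 CPM in control (log2 -0.14, edgeR adjusted p = 0.547). Itpr1, a calcium release channel of the endoplasmic reticulum, was at 0.25 (edgeR adjusted p = 0.114).

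Marker genes of other cells moved beside the channel genes, and their part in these results was not tested. Summed over 8 genes, stromal markers came to 585 to 721 CPM in prolactin libraries and 287 to 427 CPM in control libraries. All 8 had positive changes (median log2 0.47), against 50.1% of all genes tested. Col1a1 and Col1a2 passed, beside 0.652% of all genes tested that were higher. Alpha-cell markers summed to 34923 to 36278 CPM with prolactin and 23309 to 37278 CPM in control. Nearly all of that sum was Gcg, whose groups overlapped. Of the 6 alpha-cell markers, 5 had positive changes (median log2 0.30, against 50.1% of all genes tested that were positive). Groups were separate with prolactin higher for 3 of 6, against 11.3% of all genes tested. In edgeR 1 of 6 passed, beside 0.652% of all genes tested that were higher. Of 6 endothelial markers, all were positive and Vwf passed, beside the same shares of all genes tested (50.1% and 0.652%). Their sums were 258 to 267 CPM with prolactin and 220 to 254 CPM in control. Delta and PP markers summed to 3654 to 4593 CPM with prolactin and 5800 to 5988 CPM in control. Sst fell, beside 0.104% of all genes tested that were lower. Nearly all of the delta and PP sum was Sst and Ppy: Hhex was at -0.02, Ghsr at 0.00 and Rbp4 at 0.09, 2 of the 5 genes had positive changes and the median was -0.02. Schwann and neural markers summed to 63.6 to 67.1 CPM with prolactin and 37.4 to 65.5 CPM in control, beta-cell markers to 118610 to 123980 CPM with prolactin and 116580 to 143000 CPM in control, and in both lists 0 passed in edgeR (1 neural marker was higher and 1 beta-cell marker lower at an unadjusted p under 0.05). The 5 marker calls were lost with prolactin replicates 2 and 3 summed (edgeR adjusted p from 0.0560 to 0.273), and those of Col1a1, Col1a2 and Sst each held in 1 of the 6 fits that leave out a library. No marker was at 0 in any library.

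In the authors' deposited table, 13 of the 89 genes were higher with prolactin at an adjusted p under 0.05 and 0 were lower, beside 4.1% of 18913 genes higher and 1.6% lower. The 13 are the 6 genes above with Cacna1e, Cacna1i, Scn7a, Kcna1, Kcnc2, Kcnab1 and Kcnip3. For these 7, the authors' deposited table gives log2 changes from 0.36 for Kcnc2 to 0.80 for Cacna1e and adjusted p-values from 0.000362 for Cacna1e to 0.0347 for Kcnip3. Cacna1e, Cacna1i, Scn7a, Kcna1, Kcnc2 and Kcnab1 had separate groups in the counts, and Kcnip3 did as well.

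At the edge of the level threshold, Kcnip2 (0.769 CPM), Cacna1f (0.717) and Kcnd3 (0.615) were the lowest genes inside, and Kcnh5 (0.499), Kcns3 (0.464) and Kcnj5 (0.434) the highest outside, as means of CPM from unscaled library totals. Kcnj5, a G-protein-gated rectifier that pairs with Kcnj3, had 0.548, 0.529 and 0.638 CPM with prolactin and 0.270, 0.247 and 0.366 CPM in control. These groups did not overlap, and the log2 change of 0.96 (SE 0.201) missed the threshold (edgeR adjusted p = 0.0751). Kcnj5 passed in DESeq2 (adjusted p = 0.00279) and not with prolactin replicates 2 and 3 summed (edgeR adjusted p = 0.259). It is not in the counts of the 89 genes. A threshold of 0.25 CPM would give 97 genes and one of 1 CPM 84. Scn2a1 had 2.27 ± 0.12 CPM with prolactin and 2.02 ± 0.08 CPM in control (SD, n = 3 each; log2 0.17, edgeR adjusted p = 0.510). Of the 89 genes, 29 stand in a list of channels known from islets. In edgeR, 3 of those 29 rose (Cacna1g, Scn3a and Kcnn4), 0 fell (1 at an unadjusted p under 0.05), and the median log2 change of the 29 was 0.10. The 3 are 10.3% of that list, beside 6.74% of the 89 genes and 0.652% of all genes tested.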

How the data were processed

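Per the labels' protocols, polyadenylated RNA was prepared with the NEBNext Ultra II chemistry and sequenced on a NovaSeq X Plus. The authors deposited raw counts per gene name: per the file headers, featureCounts 2.0.3 assigned reads to GENCODE vM10 models with its paired-read option and no strand option. Named in the submitters' processing notes are mm10, SAMtools 1.21, Subread 2.1.0 and DESeq2. No aligner is named there (not given in the sources used here). Both mates of a pair can have been counted, so counts overstate independent fragments, and no interval from counts alone is given. A second deposited table holds the authors' log2 fold changes with p-values and adjusted p-values, a score (the test statistic) and the mean signal of a gene. DESeq2 run on the counts gave its log2 values within 1.2e-07 for the 89 genes.

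edgeR 4.0.16 (R 4.3.3; TMM; filter with minimum count 10 and minimum total 15, which kept 23924 of 48397 genes) gave a two-sided quasi-likelihood test of prolactin against control, condition being the only term, with Benjamini-Hochberg adjustment over all genes tested and a threshold of 0.05. CPM use TMM-scaled totals except in the level threshold, and levels between genes are per kb of merged exons in the file headers' gene models. The SE comes from the test statistic. Alternatives were other scalings and filters, DESeq2 1.42.0, limma-voom 3.58.1, the replicate number as a block, each library left out, prolactin replicates 2 and 3 summed, and counts halved. The procedure was tested on simulated data.

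The channel genes, classes, gene lists and tests were chosen with earlier results of these data known. Genes were named if they passed, had 1 of the 12 smallest p-values, were 1 of the 2 most abundant in their class, stood in the list of islet channels, or lay next to the level threshold; others were named after their values were seen. Some genes that this rule names, and 1 marker gene, are not reported here; they stay in the counts. The other lists were excitability and markers of alpha, beta, delta and PP, acinar, ductal, endothelial, stromal, Schwann and neural, and immune cells. Motifs were searched in RefSeq promoter windows of GRCm38.p6.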

Additional observations from a re-analysis of the deposited data

How the results depend on the processing

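The number of channel genes that were higher was 6 with all libraries, 13 in DESeq2, 9 without a filter, 8 with the replicate block (which adds Scn7a and Cacna1i) and 0 with prolactin replicates 2 and 3 summed, and ran from 0 to 6 over the fits that leave out a library. None was lower in any of these settings. Over all genes, 156 were higher in edgeR, 470 without a filter, 776 in DESeq2, 464 with the replicate block and 42 with the pair summed, and 39 to 342 with a library left out. The number lower was 25, against 127 without a filter, 46 with a filter of 1 CPM in 3 libraries, 303 in DESeq2, 134 with the block and 2 with the pair summed, and 1 to 234 with a library left out. The replicate block changed no call among the 6 higher genes, and with it Atp1b2 of the excitability list was lower (log2 -0.52 without the block, adjusted p 0.0169 with it). Deviations of same-numbered libraries correlated by 0.394, 0.243 and -0.0363, and prolactin replicate 3 correlated best with control replicate 2 (0.299), so the numbers were not taken as pairs. The median log2 change of the channel genes was 0.13 and stayed between 0.10 and 0.18 in every setting. Over the reported channel genes that the naming rule takes, 574 alternative values kept direction and side of the threshold, 33 no longer passed, 11 newly passed and 24 changed sign. Kcnc1 was -0.0030 with the block and -0.063 with the pair summed, and Cacna1c was 0.00033 with upper-quartile scaling. With a library left out, the log2 change ran from -0.12 to 0.059 for Cacna1d, -0.084 to 0.0097 for Cacna2d1, -0.18 to 0.21 for Cacng7, -0.12 to 0.015 for Scn3b, -0.050 to 0.075 for Kcnj11, -0.018 to 0.096 for Kcnj6, -0.047 to 0.042 for Kcnk16, -0.085 to 0.18 for Kcnc1, -0.25 to 0.030 for Kcnd3, -0.081 to 0.067 for Cacna1c and -0.43 to 0.0036 for Cacna1f. The cause was not tested. Calls lost with a library left out also rest on fewer samples.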

Other observations

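Control replicate 3 was the lowest of the 6 libraries for 30 of the 89 channel genes and the highest for 17, and control replicate 1 was the lowest for 25. Prolactin replicates 1, 2 and 3 were the lowest for 13, 3 and 4 genes. In the fits that leave out 1 library, 50 of the 89 changes were positive in all 6, 12 were negative in all 6 and 27 took both signs. Acinar markers summed to 721 to 1646 CPM in prolactin libraries and 437 to 2474 CPM in control libraries, ductal markers to 45.9 to 69.1 CPM with prolactin and 38.0 to 51.5 CPM in control, and immune markers to 41.6 to 44.7 CPM with prolactin and 42.6 to 48.7 CPM in control. None of the markers in these 3 lists passed in edgeR, and 2 ductal markers were higher at an unadjusted p under 0.05.

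Exons of 9 channel genes share 5% or more of their length with another gene name. Reads in the shared bases cannot be told apart where strand was not used, and how they were assigned was not tested. Kcna6, a Shaker-type pore, shares 39.6% with Gm26673, which had a mean of 0.00575 CPM, against 2.13 CPM for Kcna6. Kcnj3, a G-protein-gated rectifier, shares 31.1% with Gm26794, which had 0.210 CPM, against 3.66 CPM for Kcnj3. Cacna1d shares 5.60% with Chdh, which had a mean of 2.67 CPM, against 166 CPM for Cacna1d.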
